A study of Homo sapiens with 6 samples.

Results

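The genes described here encode mitochondrial ribosomal proteins and carry the symbols MRPL or MRPS followed by a number and at most 1 letter. Of the 15598 genes in the deposited table, 77 matched this pattern. MRPL symbols, given to the large subunit, accounted for 49 of them, and MRPS symbols, given to the small subunit, for 28. The matching was by name alone and used no measured value. RNA from MHCC97H, an established human hepatocellular carcinoma line described by its submitters as highly metastatic, was sequenced from 3 shcontrol and 3 shHNRNPC samples. The shHNRNPC cells carried a knockdown of HNRNPC and the shcontrol cells its control, in the same line, and the labels tell apart no second hairpin, no other treatment and no time point. The labels do not say whether the 3 samples of a group came from separate cultures, so the p-values below measure the spread between these samples, which may be technical. Libraries are called by the headings of the deposited table, where NC marks shcontrol and SI marks shHNRNPC.

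Mitochondria translate the few proteins of their own genome, all of them membrane subunits of the respiratory chain and of ATP synthase, on a ribosome that is separate from that of the cytosol. Its RNAs come from mitochondrial DNA, while all of its proteins are encoded in the nucleus, made in the cytosol and imported. The large subunit forms peptide bonds and holds the exit tunnel, and the small subunit reads the mRNA. Many of the proteins descend from bacterial ribosomal proteins, and others exist only in mitochondrial ribosomes. The product of HNRNPC, hnRNP C, coats precursor mRNAs in the nucleus at runs of U and is known for keeping exons derived from Alu elements out of mature mRNAs.

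The libraries held 15563077 to 18328475 counted reads. HNRNPC itself stood at 847, 855 and 856 counts per 1000000 (CPM, scaled by the trimmed mean of M-values, TMM) in shcontrol and at 61.5, 66.4 and 59.0 CPM in shHNRNPC. On the log2 scale HNRNPC changed by -3.77 ± 0.0297 (SE), with an adjusted p of 5.04e-55 by edgeR. The hepatocyte markers ALB, AFP, APOA1, HNF4A and SERPINA1 were under 1 CPM in every library, and 4 others of the 12 listed were not analysed here. KRT8, at means of 1010 and 1160 CPM, and KRT18, at 364 and 405 CPM, are keratins of simple epithelia in general, so the markers measured did not show the liver identity given in the labels. The 4 leukocyte markers in the table summed to 0.215 to 0.759 CPM in shcontrol and 0.608 to 0.905 CPM in shHNRNPC, and the 4 endothelial markers to 1.18 to 2.10 CPM and 0.791 to 1.19 CPM. The 6 fibroblast markers summed to 18.9 to 21.3 and 19.5 to 20.9 CPM, nearly all of it COL1A1 and PDGFRB. In bulk samples such as these, fewer cells expressing a gene and less of its RNA per cell cannot be told apart.

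Knockdown of HNRNPC was accompanied by small changes in the mitoribosomal genes, in both directions. Of 75 members that passed the filter on low counts, 24 were higher in shHNRNPC and 11 lower at an adjusted p under 0.05 (edgeR quasi-likelihood test with Benjamini-Hochberg adjustment over all 11831 genes tested), and 40 were not called. Over all tested genes 29.8% were called higher, 31.3% lower and 61.1% in either direction, against 32.0%, 14.7% and 46.7% of the members. The members' higher share was therefore close to that of all genes. The balance of directions moved with the scaling, from 24 higher and 11 lower to 15 and 16 when reads were scaled by library size alone, and to 20 and 35 after a correction for GC content and length. The shares of all tested genes moved too. They were 25.3% higher and 35.2% lower with library size alone, and 26.1% and 30.0% after that correction.

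The sizes were small beside those of other genes. The members also had a higher level, with a median of 77.7 CPM against 28.1 CPM for all tested genes. Genes matched in level were not compared. A change under 1.2-fold in either direction, called or not, was seen for 64 of the 75 members (85.3%), compared with 55.4% of all tested genes. The median log2 fold change of the members was 0.04, with a middle range of -0.03 to 0.14, while that of all tested genes was -0.00 with a middle range of -0.28 to 0.20. CPM values of the groups did not overlap for 34 members (45.3%), against 64.0% of all tested genes. Among the members 6 were called higher by at least 1.2-fold, where 15.8% of all genes were. Another 6 were called lower by as much, where 22.8% of all genes were. MRPS36, called higher, lay at the limit of 1.2-fold and is counted both here and among the 64 members under 1.2-fold. No member was called higher by 1.5-fold or more (4.90% of all genes were), and 3 were called lower by 1.5-fold or more (9.12% of all genes were). Those 3 were MRPL19, MRPL1 and MRPL22, all of the large subunit.

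**Figure D1:**
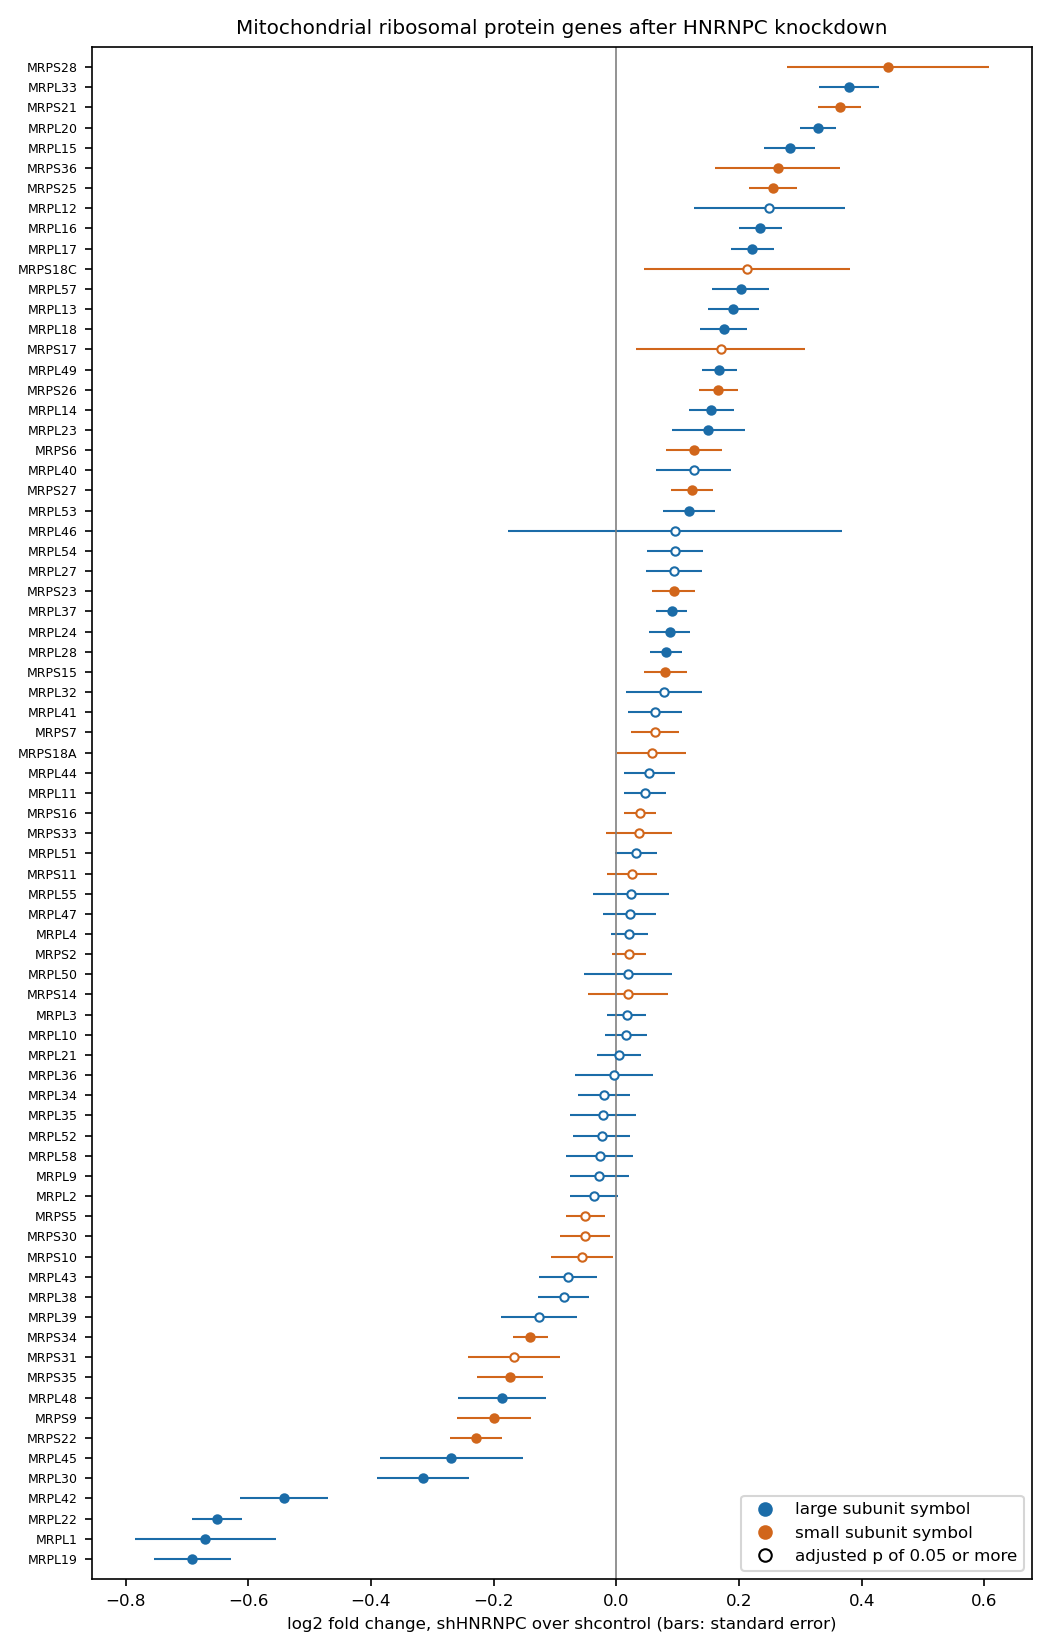
Log2 fold changes of the 75 tested members, shHNRNPC over shcontrol, with standard errors as bars, blue for MRPL and orange for MRPS symbols, filled where the adjusted p was under 0.05. MRPL19, MRPL1, MRPL22 and MRPL42 stand apart at the low end, below -0.54, while most members lie within 0.2 of 0 and 24 higher and 11 lower calls became 15 and 16 under scaling by library size alone. Over all tested genes that scaling called 25.3% higher and 35.2% lower.

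Of the 49 large-subunit genes, 7 were called lower. MRPL19, the counterpart of a bacterial protein at the contact between the subunits, lies on chromosome 2 from 75646803 to 75670753 on the plus strand. It was at 39.7, 40.4 and 40.7 CPM in the shcontrol libraries and at 23.7, 26.7 and 24.4 CPM in the shHNRNPC libraries. The highest knockdown library lay well under the lowest control library, and the difference was 1.61-fold, or -0.69 ± 0.063 on the log2 scale (SE, adjusted p = 3.72e-13). Positions are those of the deposited table, whose build is not given in the sources used here. For each of the 76 members with a position, the place overlapped the gene of that name in the GRCh38 annotation GENCODE 29.

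MRPL1 encodes the counterpart of bacterial L1, whose mobile stalk helps spent tRNA leave the ribosome, and lies on chromosome 4 from 77862520 to 77952790 on the plus strand. Its CPM values were 9.88, 11.8 and 11.2 in shcontrol and 7.42, 6.62 and 6.68 in shHNRNPC. Again no knockdown library reached the control range, and the log2 fold change was -0.67 ± 0.115 (adjusted p = 2.24e-06), with the wider error of a gene of low count. MRPL22, whose bacterial counterpart lines the exit tunnel, was more abundant. It lies on chromosome 5 from 154941095 to 154966966 on the plus strand and fell from 106, 101 and 100 CPM to 64.3, 67.3 and 63.8 CPM, a log2 fold change of -0.65 ± 0.0414 (adjusted p = 2.73e-18). MRPL19, MRPL1 and MRPL22 stayed lower in all 14 alternative analyses, including a test against a 1.2-fold change.

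MRPL42, a protein found only in mitochondrial ribosomes, was at 28.9, 29.5 and 29.2 CPM in shcontrol and at 21.7, 19.9 and 18.6 CPM in shHNRNPC. The control libraries differed by less than 1 CPM from each other and all lay above the knockdown libraries, with a log2 fold change of -0.54 ± 0.072 (adjusted p = 1.01e-08). Once corrected for GC content and length this value was -0.08 (adjusted p = 0.322), and the call was lost. MRPL30, the counterpart of bacterial L30, had 23.9, 26 and 24.1 CPM against 21, 19.2 and 19.3 CPM, without overlap, and a log2 fold change of -0.32 ± 0.0746 (adjusted p = 0.000307). It shares 19.5% of its exonic bases with other annotated genes on the same strand.

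The other lower calls of the large subunit were less steady. MRPL48, a mitochondria-specific protein, fell from 27.7 ± 1.93 to 24.3 ± 1.56 CPM (SD, n = 3 each), a log2 fold change of -0.19 (adjusted p = 0.0224). That call was lost without the library NC_3_2 (adjusted p = 0.152), SI_3_2 (0.0716) or SI_3_3 (0.105). MRPL45, which sits by the tunnel exit and ties the ribosome to the inner membrane, had overlapping values of 9.76, 8.67 and 11.7 CPM and of 8.82, 8.73 and 7.64 CPM. Its adjusted p of 0.0435 by edgeR rose to 0.37 without NC_3_3, and its log2 fold change of -0.27 then came to -0.14.

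Of the large-subunit genes 15 were called higher. MRPL33, the counterpart of the small bacterial protein L33, lies on chromosome 2 from 27771717 to 27779734 on the plus strand. It rose from 47.5, 46.6 and 46.9 CPM to 62.7, 59.6 and 61.0 CPM. Each group stayed within about 3 CPM while the groups were far apart, with a log2 fold change of 0.38 ± 0.0486 (adjusted p = 4.45e-09). MRPL20, whose bacterial counterpart binds early in the assembly of the large subunit, lies on chromosome 1 from 1401908 to 1407313 on the minus strand. It rose from 158, 163 and 158 CPM to 198, 205 and 199 CPM, without overlap, a log2 fold change of 0.33 ± 0.0298 (adjusted p = 3.27e-13). MRPL33 and MRPL20 stayed higher in all 14 alternatives, although MRPL20 dropped to 0.10 (adjusted p = 0.00152) once corrected for GC and length. MRPL33 shares 21.1% of its exonic bases with BABAM2 on the same strand, and MRPL20 shares 15.5% with AL391244.1 and RN7SL657P.

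MRPL15, the counterpart of bacterial L15, rose from 76.9 ± 2.52 to 93.5 ± 3.95 CPM, a log2 fold change of 0.28 (adjusted p = 1.07e-07). MRPL16, counterpart of a bacterial protein next to the peptidyl transferase centre, went from 112 ± 1.36 to 132 ± 5.37 CPM (0.24, adjusted p = 1.76e-07), and to 0.04 (adjusted p = 0.28) once corrected for GC and length. MRPL17 and MRPL13, both with bacterial counterparts, rose from 143 ± 8.04 to 166 ± 4.97 CPM and from 68.8 ± 0.748 to 78.5 ± 0.722 CPM. MRPL57, a small mitochondria-specific protein, rose from 62.3 ± 2.88 to 71.8 ± 3.00 CPM. For these 5 genes no knockdown library fell into the control range. The remaining large-subunit calls were smaller, from MRPL18 at a log2 fold change of 0.18 to MRPL28 at 0.08.

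**Figure D2:**
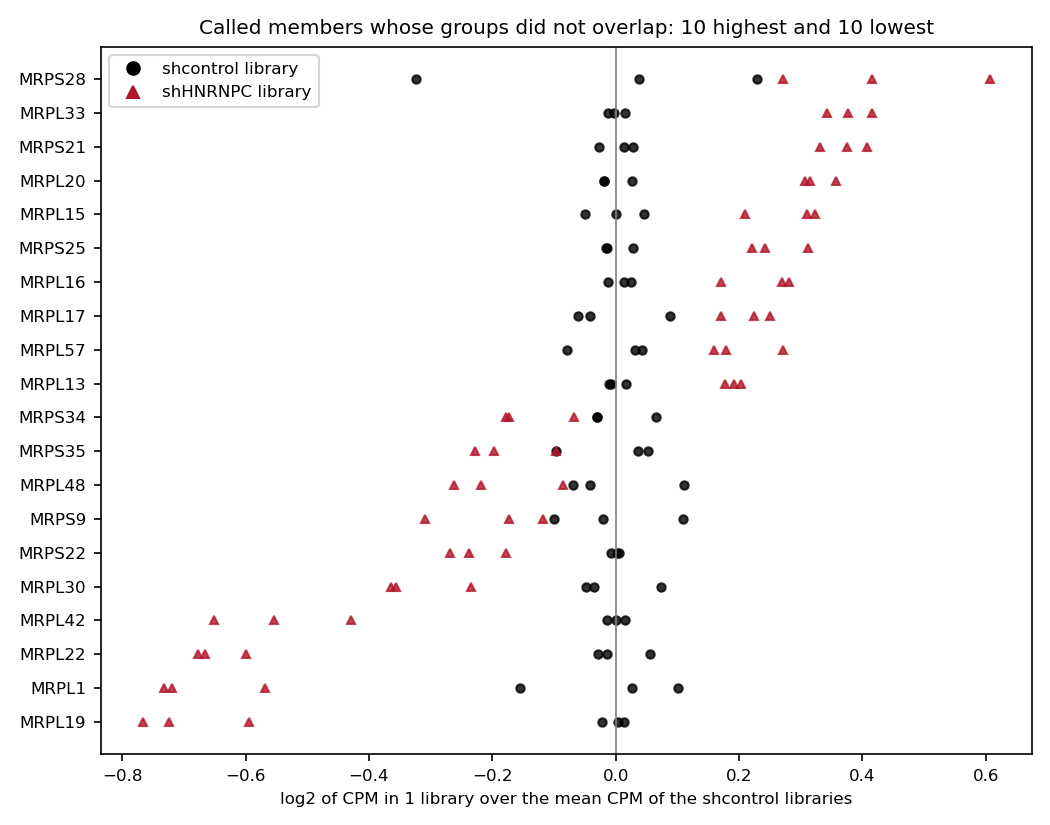
The CPM of each library relative to the shcontrol mean, on a log2 scale, for the 10 highest and 10 lowest called members whose groups did not overlap, with black circles for shcontrol and red triangles for shHNRNPC. MRPL19, MRPL1, MRPL22 and MRPL42 show wide gaps, the control points of MRPS28 spread more than those of any other gene shown, and for MRPS35 the nearest libraries of the groups both read 47.4 CPM after rounding.

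The sequences next upstream of the start sites of MRPL20 and MRPL33, which rose, and of MRPL22 and MRPL30, which fell, are printed because short motifs in such windows were found in many mitoribosomal genes. They are the 250 bases before the start in RefSeq, build GRCh38.p14, 5′ to 3′ on the gene's strand. Capitals mark the ETS motif CCGGAAG on either strand and, in MRPL30, the NRF1 motif, which is GCGCA, any base, then GCGC, on either strand. The windows are chr1:1407294-1407543 on the minus strand, chr2:27771469-27771718, chr5:154940823-154941072 and chr2:99180934-99181183 on the plus strand.
MRPL20: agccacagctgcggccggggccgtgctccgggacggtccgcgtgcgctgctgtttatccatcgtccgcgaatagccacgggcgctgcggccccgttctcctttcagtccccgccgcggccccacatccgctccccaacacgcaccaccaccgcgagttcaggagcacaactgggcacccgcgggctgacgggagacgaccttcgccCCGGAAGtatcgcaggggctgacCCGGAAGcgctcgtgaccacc
MRPL33: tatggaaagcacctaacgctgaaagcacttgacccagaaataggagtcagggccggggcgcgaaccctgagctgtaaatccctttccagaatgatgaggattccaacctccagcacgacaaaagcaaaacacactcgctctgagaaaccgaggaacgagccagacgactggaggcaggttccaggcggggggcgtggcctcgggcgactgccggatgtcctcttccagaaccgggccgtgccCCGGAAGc
MRPL22: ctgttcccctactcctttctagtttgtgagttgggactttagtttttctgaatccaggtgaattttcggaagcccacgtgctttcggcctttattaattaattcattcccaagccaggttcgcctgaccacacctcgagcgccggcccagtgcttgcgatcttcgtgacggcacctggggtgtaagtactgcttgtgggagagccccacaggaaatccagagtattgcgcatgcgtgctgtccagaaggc
MRPL30: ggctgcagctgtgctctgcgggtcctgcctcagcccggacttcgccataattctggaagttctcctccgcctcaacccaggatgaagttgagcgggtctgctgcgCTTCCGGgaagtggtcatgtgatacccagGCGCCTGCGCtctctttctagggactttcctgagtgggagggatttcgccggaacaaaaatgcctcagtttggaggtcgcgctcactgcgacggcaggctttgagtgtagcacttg

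RefSeq windows of 300 bases, which add the 50 bases after the start, were matched for 68 members. The ETS motif, a site type bound by factors such as GABPA, was in 29 of them (42.6%), in 19.7% of 9415 windows of tested genes and in 10.7% of all 27305 windows. The YY1 motif AGATGGC was in 20 (29.4%), in 7.56% of tested genes and in 5.61% of all. The NRF1 motif was in 8 (11.8%), close to the 11.9% of tested genes, and in 6.28% of all. At least 1 of these motifs was in 12 of 19 windows of members called higher, 8 of 11 called lower and 23 of 36 not called. The share was 33.9% of tested genes and 20.1% of all windows. In the same order of calls, ETS was in 8, 4 and 16 windows, YY1 in 2, 3 and 13, and NRF1 in 3, 3 and 2. Differences between these groups were not tested. MRPL20 carries 2 ETS motifs in the printed stretch and MRPL33 has 1, while MRPL22 has no capitals there. MRPL20 and MRPL22 each have a YY1 motif in the window of 300 bases, but none that is complete within the printed stretch. MRPL30, which fell, holds both an ETS and an NRF1 motif.

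Among the 26 tested small-subunit genes 9 were called higher and 4 lower, and no lower call reached 1.2-fold. MRPS22, a mitochondria-specific protein, fell from 81.1, 80.4 and 80.9 CPM to 71.4, 68.5 and 67.1 CPM. The control libraries were within 1 CPM of each other and above all knockdown libraries, with a log2 fold change of -0.23 ± 0.0423 (adjusted p = 8.32e-06). MRPS34, a mitochondria-specific protein needed for a stable small subunit, fell from 297, 278 and 278 CPM to 252, 251 and 271 CPM, a log2 fold change of -0.14 ± 0.029 (adjusted p = 5.36e-05). Its nearest libraries were 278 and 271 CPM, so the groups were close but separate. MRPS9, whose bacterial counterpart touches the tRNA at the peptidyl site, fell from 43.5 ± 3.15 to 38.0 ± 2.56 CPM (log2 fold change -0.20, adjusted p = 0.00375). That call was lost without NC_3_3 (adjusted p = 0.0701) or SI_3_3 (0.0535). MRPS35, a mitochondria-specific protein, went from 50.7 ± 2.81 to 45.0 ± 2.15 CPM (-0.17, adjusted p = 0.00511), and to -0.04 (adjusted p = 0.487) once corrected for GC and length.

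MRPS21, the counterpart of a bacterial protein near the mRNA on the small subunit, lies on chromosome 1 from 150293720 to 150308979 on the plus strand. It rose from 99.1, 102 and 103 CPM to 127, 134 and 131 CPM. All knockdown libraries lay above all control libraries, with a log2 fold change of 0.36 ± 0.0355 (adjusted p = 2.71e-12), and the call held in all 14 alternatives. GENCODE 29 names 8 MRPS21 pseudogenes, with which reads could be shared. MRPS25, a mitochondria-specific protein, rose from 87.1, 84.6 and 84.5 CPM to 101, 99.5 and 106 CPM, without overlap (log2 fold change 0.26 ± 0.039, adjusted p = 2.08e-07). It shares 22.2% of its exonic bases with NR2C2 on the opposite strand.

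The highest log2 fold change of any member was that of MRPS28, at 0.44 ± 0.165 (adjusted p = 0.0186), and it rested on few reads. Its values were 3.06, 4.49 and 3.93 CPM in shcontrol and 5.11, 4.62 and 5.83 CPM in shHNRNPC. The groups came within 0.2 CPM of each other, and the call was lost without NC_3 (adjusted p = 0.141), without SI_3_3 (0.112) and with DESeq2 (0.0617). It shares 35.8% of its exonic bases with AC036214.3 on the same strand.

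Large and small subunits were then compared as sets. The median log2 fold change was 0.03 for the 49 MRPL genes, with a middle range of -0.03 to 0.13, and 0.05 for the 26 MRPS genes, with a middle range of -0.05 to 0.16. The difference between these medians was -0.015 and was not tested. Taken in single libraries against the shcontrol mean, the difference of subunit medians varied with an SD of 0.0115 between replicates. That SD describes single libraries and not a difference between groups, so the 2 values are not directly comparable. The called shares were 30.6% higher and 14.3% lower for MRPL and 34.6% and 15.4% for MRPS. All 6 members called lower by at least 1.2-fold were MRPL genes, while those called higher by as much were 3 of each. This difference between the subunits was not tested. The 3 MRPS genes were MRPS21, MRPS28 and MRPS36, and MRPS28 and MRPS36 lost their calls in several alternatives. With genes assigned by structure, as described below, the higher calls of at least 1.2-fold were also 3 of each. With correction for GC content and length the medians were -0.12 for MRPL and -0.03 for MRPS, and 25 MRPL and 10 MRPS genes were called lower.

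The summed CPM of all MRPL genes was 4561, 4463 and 4447 in shcontrol and 4679, 4720 and 4665 in shHNRNPC, or 4490 ± 61.7 and 4688 ± 28.6 (SD, n = 3 each). The summed CPM of the MRPS genes was 2455, 2423 and 2429 in shcontrol and 2496, 2507 and 2478 in shHNRNPC, or 2436 ± 17 and 2494 ± 14.6. With TMM scaling every knockdown sum was above every control sum. Scaled by library size alone the groups overlapped for both subunits, at means of 4551 and 4621 CPM for MRPL and of 2468 and 2459 CPM for MRPS in shcontrol and shHNRNPC. The ratio of large to small went from 1.86, 1.84 and 1.83 to 1.87, 1.88 and 1.88, so that the groups did not overlap but came within about 0.01. These sums weight genes by their read number, and a gene with many reads, such as MRPL37, counts for more than all of MRPL1, MRPL19, MRPL30 and MRPL42.

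Symbols and structures of the ribosome do not match in every case. MRPS30 and MRPS18A encode proteins of the large subunit (mL65 and mL66), MRPS36 is a component of the 2-oxoglutarate dehydrogenase complex, and DAP3, PTCD3, CHCHD1 and AURKAIP1 encode small-subunit proteins under other symbols, as GADD45GIP1 does for the large subunit. With genes assigned by structure, 15 of 52 large-subunit genes were higher and 7 lower, at a median of 0.03, and 9 of 27 tested small-subunit genes were higher and 6 lower, at a median of 0.04. Among the genes moved, MRPS30 (-0.05, adjusted p = 0.291) and MRPS18A (0.06, adjusted p = 0.386) did not pass the test. MRPS36 had a log2 fold change of 0.26 (adjusted p = 0.0232), with values of 9.94, 12 and 10.6 CPM against 13.1, 14.1 and 11.8 CPM that overlapped, and lost its call without NC_3, NC_3_3, SI_3 or SI_3_2 and with DESeq2 (adjusted p = 0.0687). CHCHD1 rose from 46.0 ± 1.62 to 62.6 ± 5.26 CPM (0.45, adjusted p = 8.32e-10). DAP3, a GTP-binding protein of the small subunit, fell from 156 ± 1.21 to 144 ± 2.25 CPM (-0.12, adjusted p = 0.00148). PTCD3, a pentatricopeptide repeat protein, fell from 46.7 ± 0.239 to 42.6 ± 0.453 CPM (-0.14, adjusted p = 0.0239), but stood at 0.10 once corrected for GC and length.

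Members were also grouped by descent, within the subunits given by their symbols. MRPS30 was thus counted with the small subunit, and MRPS18A and MRPS36 were left out of both classes. Of 30 large-subunit proteins with a bacterial counterpart 11 were higher and 4 lower, and of 19 found only in mitochondria 4 were higher and 3 lower. Of 14 tested MRPS genes with a counterpart 4 were higher and 1 lower, and of 10 mitochondria-specific ones 4 were higher and 3 lower. The medians were 0.03 and 0.03 in the large and 0.05 and -0.01 in the small subunit. Of all tested genes 29.8% were higher and 31.3% lower, and no difference between the classes was tested.

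**Figure D3:**
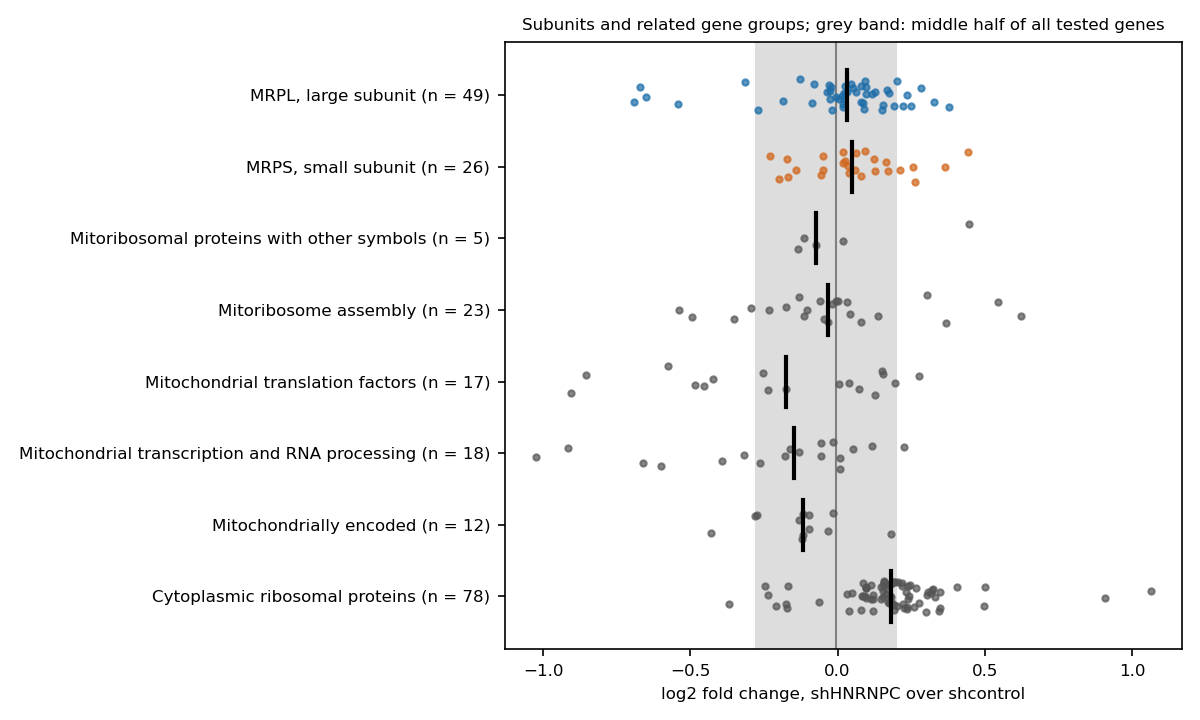
Log2 fold changes of the members by subunit and of related gene groups, each point a gene and each black bar the median, with the middle range of all tested genes in grey. The bulk of the MRPL and MRPS points lies inside the grey band, with medians of 0.03 and 0.05, while the cytoplasmic ribosomal protein genes have a median of 0.18.

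Levels between genes were compared per length, as CPM divided by the kilobases of the longest coding transcript in GENCODE 29. In shcontrol the most abundant large-subunit mRNAs were those of MRPL41 (261 ± 38.7 CPM per kilobase), MRPL37 (249 ± 10) and MRPL28 (167 ± 2.51). Of the small subunit they were those of MRPS34 (273 ± 10.3 CPM per kilobase), MRPS2 (162 ± 6.94) and MRPS26 (146 ± 6.27). MRPS34, MRPL41 and MRPL37 lay within the spread of MRPL41, so no order among them is given by these values.

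MRPL41, a mitochondria-specific protein, varied in the controls, with 384, 290 and 313 CPM against 342, 335 and 355 CPM in the knockdown. The knockdown libraries lay inside the control range, and the gene did not pass the test (log2 fold change 0.06, adjusted p = 0.214). Without the highest control, NC_3, it did, at 0.18 (adjusted p = 2.32e-09). MRPL37, also mitochondria-specific, was called higher by a log2 fold change of 0.09 (adjusted p = 0.0019), but lower by -0.10 (adjusted p = 0.000302) with correction for GC and length. MRPL28, the counterpart of bacterial L28, had 290, 285 and 282 CPM against 311, 300 and 296 CPM, at 0.08 (adjusted p = 0.00631), and -0.12 (adjusted p = 4.44e-05) so corrected. MRPS26 went from 0.17 to -0.08 in the same way, while MRPS2 stood at 0.02 (adjusted p = 0.544). The most abundant members thus had small changes, and all 6 were called lower under that correction, of which MRPS34 alone was called lower without it.

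The lowest levels per length among tested large-subunit genes were those of MRPL46 (1.58 ± 0.151 CPM per kilobase), MRPL42 (1.87 ± 0.0181) and MRPL45 (5.90 ± 0.91). In the small subunit they were those of MRPS18C (2.57 ± 0.47), MRPS17 (3.14 ± 0.377) and MRPS28 (4.5 ± 0.851). For MRPL46, MRPS18C and MRPS28, and also for MRPL12 and MRPS24, the authors' FPKM values, which lie in columns not used here, stand many times higher than these counts give. The printed levels of these 5 genes are therefore levels of counted reads only, and their place at the low end is uncertain. The level of MRPL42 depends on the length used, since its longest annotated coding transcript has 15582 bases and a shorter transcript would give a higher level. MRPL46, a mitochondria-specific protein, had only 1.76, 1.46 and 1.61 CPM against 2.25, 1.08 and 1.87 CPM. Its libraries overlapped and its standard error of 0.272 was the largest of any member (log2 fold change 0.10, adjusted p = 0.777). MRPS17, with a counterpart in bacteria, stood at 0.17 (adjusted p = 0.29).

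**Figure D4:**
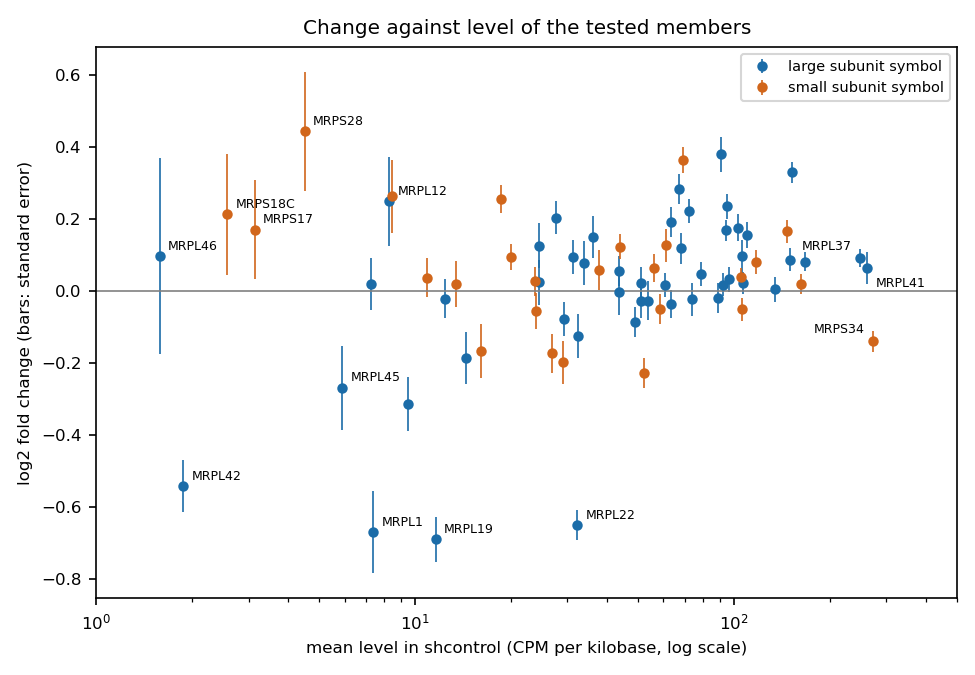
Log2 fold change with standard error against the mean shcontrol level per length (CPM per kilobase, log scale) of the 75 tested members, blue for MRPL and orange for MRPS symbols. MRPS34, MRPL41 and MRPL37 lie farthest right with small changes, and the longest bars belong to members with few reads such as MRPL46.

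Some members with few reads also shared sequence with other genes. The 5 tested members under 10 CPM in shcontrol were MRPL46, MRPS28, MRPS18C, MRPS17 and MRPL12. Each shares exonic bases with another gene in GENCODE 29, from 11.3% for MRPL46 to 68.2% for MRPL12. MRPL45, MRPS36 and MRPL1, the members next above 10 CPM in shcontrol, share none. A link between read number and shared bases was not tested. Of all 77 members 41 share such bases and 14 share over 20%. Whether reads from shared bases were left out of the counts was not tested. MRPS24, the counterpart of a bacterial protein at the mRNA entry, had 5, 3 and 5 reads in shcontrol and 2, 4 and 0 reads in shHNRNPC, and did not pass the filter. A count of 0 allows up to 3 reads, or 0.168 CPM before scaling in that library. MRPS24 overlaps the readthrough gene URGCP-MRPS24 over 23.2% of its exonic bases. MRPS12, the counterpart of a bacterial protein of the decoding site, had 1 read in NC_3_2 and 0 in the other 5 libraries. MRPS18B was not analysed here.

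The stalk of the large subunit, which recruits translation factors, is made of MRPL10 and MRPL12. MRPL10 was at 121, 121 and 124 CPM in shcontrol and at 124, 123 and 124 CPM in shHNRNPC (log2 fold change 0.02, adjusted p = 0.705). MRPL12 had only 10.6, 6.46 and 8.56 CPM against 9.61, 10.4 and 10.5 CPM, with overlap, and a log2 fold change of 0.25 (adjusted p = 0.076). Without NC_3 that value was 0.42 (adjusted p = 0.00337), so whether MRPL12 passed the test depended on that library. MRPS18C, 1 of 3 paralogs of bacterial S18, had 4.59, 4.75 and 3.34 CPM against 5.23, 3.94 and 5.43 CPM, with overlap (0.21, adjusted p = 0.274). MRPL58, a peptidyl-tRNA hydrolase that rescues stalled ribosomes, had a log2 fold change of -0.03 (adjusted p = 0.69).

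Short genes with short mRNAs made up much of the list. The median genomic span of the tested members was 8171 bases against 26225.5 for all tested genes, and the median length of the longest coding transcript 1547 against 3497 bases, at GC contents of 48.6% and 48.4%. The 11 members called lower had a median span of 23951 bases, transcript length of 1888 bases, GC content of 43.2% and 6 runs of at least 5 U. The 24 called higher had medians of 8982.5 bases, 1154.5 bases, 48.7% and 1 run. All tested genes also had a median of 6 runs, and the 40 members not called had 2. Per 1000 bases the medians were 2.35 for lower, 1.07 for higher and 1.31 for uncalled members, and 1.76 for all tested genes. Runs were counted in the longest coding transcript, which leaves out introns. MRPL42, with 81 such runs, and MRPL19, with 14, were among those that fell, as was MRPL1 with 3, while MRPS23, with 17, and MRPS27, with 12, were called higher. Across the 75 members the log2 fold change had a Pearson's r of -0.41 with transcript length (Spearman's rho -0.31), 0.23 with GC content (0.16), and -0.25 with U runs per 1000 bases (-0.21). Over the 11813 tested genes with a transcript these were -0.28 (-0.32), 0.40 (0.43) and -0.29 (-0.31). The points share the same 6 libraries and genes are not independent replicates.

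A correction that removed the trend with GC content and length over all genes moved the members downward. It left 20 members higher and 35 lower, where 26.1% and 30.0% of all genes were called, and 12 of the 24 higher and 9 of the 11 lower calls were shared with the uncorrected test. The log2 fold change of MRPL19 went from -0.69 to -0.40 and that of MRPS21 from 0.36 to 0.23, both still called. MRPL15, MRPL17 and MRPL57 went from 0.28, 0.22 and 0.20 to 0.18, 0.13 and 0.10, also still called. MRPS22 and MRPS34 went further down, from -0.23 and -0.14 to -0.36 and -0.40. MRPL33 and MRPS25 hardly moved, at 0.37 and 0.29. MRPL41, with a GC-rich mRNA (71.9% GC), stood at -0.22 after it, and MRPS36, with an AT-rich one (35% GC), at 0.53.

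**Figure D5:**
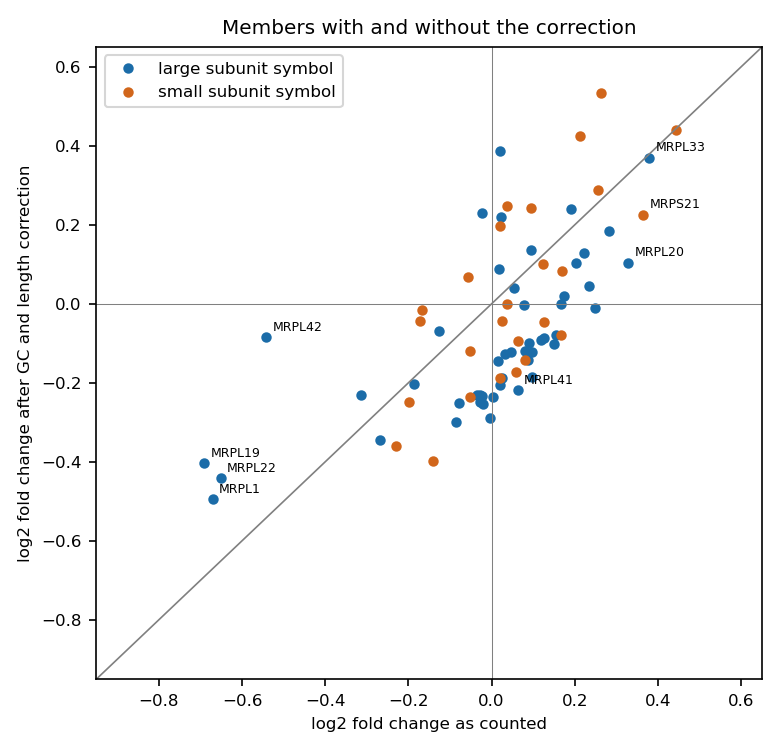
The log2 fold change of each tested member once corrected for GC and length, against its value as counted, blue for MRPL and orange for MRPS symbols, with the line of equal values. MRPL19, MRPL22 and MRPL1 stay low and MRPL33 stays high, MRPL42 moves from -0.54 to -0.08, and a cluster of members between 0 and 0.2 moves below 0.

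Other genes that serve the mitoribosome were described by list, and each count stands beside the 29.8% higher and 31.3% lower of all tested genes. Among 23 tested assembly factors 5 were higher and 6 lower (median -0.03). MALSU1, which keeps the subunits of an unfinished ribosome apart, rose from 66.2 ± 3.29 to 102 ± 2.80 CPM (log2 fold change 0.62, adjusted p = 2.35e-17). MRM2, a methyltransferase of the large mitochondrial rRNA, rose from 52.5 ± 3.24 to 67.9 ± 0.597 CPM (0.37). RCC1L, an assembly factor, fell from 274 ± 4.71 to 243 ± 1.97 CPM (-0.18). Of 17 mitochondrial translation factors and mRNA stabilisers 5 were higher and 8 lower (median -0.18). LRPPRC, which stabilises mitochondrial mRNAs, fell from 230 ± 2.77 to 168 ± 2.89 CPM, GUF1, a translation elongation factor, from 42.9 ± 0.713 to 23.8 ± 2.16 CPM, and MTIF2, the initiation factor, from 33.1 ± 2.69 to 22.1 ± 0.956 CPM. With correction for GC and length LRPPRC went from a log2 fold change of -0.46 to -0.21, MRM2 from 0.37 to 0.20 and RCC1L from -0.18 to -0.34, all still called.

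Of 18 genes of mitochondrial transcription and RNA processing 2 were higher and 9 lower (median -0.15). TFAM, which packages and transcribes mitochondrial DNA, fell from 55.1 ± 1.55 to 34.8 ± 1.24 CPM (-0.66, adjusted p = 1.17e-14). FASTKD1, an RNA-binding protein of mitochondria, fell from 16.8 ± 1.10 to 8.91 ± 0.826 CPM, and TRMT10C, a subunit of mitochondrial RNase P, from 26 ± 0.931 to 17.1 ± 0.363 CPM. Of 12 mitochondrially encoded mRNAs, the templates of this ribosome, 9 were lower and 1 higher (median -0.12), with MT-CO3 falling from 1870 ± 15.2 to 1390 ± 28.4 CPM. Among 9 factors whose sites are known from promoters of mitochondrial genes or that act with them, 1 was higher and 4 lower, including PPARGC1A (12.9 ± 0.567 to 7.41 ± 0.742 CPM), YY1 (123 ± 3.63 to 108 ± 3.26 CPM) and GABPA (19 ± 0.796 to 14.6 ± 0.28 CPM). TFAM and PPARGC1A went from -0.66 and -0.80 to -0.31 and -0.48 with correction for GC and length, both still called. The call of GABPA was lost once corrected for GC and length, at 0.02 (adjusted p = 0.82). Cytoplasmic ribosomal protein genes were higher in 60 of 78 cases and lower in 4.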

How the data were processed

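RNA of 6 samples, 3 shcontrol and 3 shHNRNPC, was extracted with Trizol and made into NEBNext Ultra libraries, per the labels. STAR, HTSeq 0.6.0 and DESeq2 are named in the submitters' processing notes. Genome build, annotation and use of strand: not given in the sources used here. Read counts per gene were deposited as whole numbers, not normalised by the authors. The adjusted p-values and log2 fold changes in the authors' deposited table are their own. In it 27 members had an adjusted p under 0.05, 18 higher and 9 lower. The share of all genes called in that table is not given here, so these counts have no background. Another 24 columns of per-library values were not used, among them FPKM values that stand far above the counts for MRPS24, MRPL12, MRPL46, MRPS28 and MRPS18C. Totals of 15563077 to 18328475 reads limit precision mainly for members under 10 CPM.

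Counts were filtered with filterByExpr, scaled by TMM and tested with glmQLFit and glmQLFTest in edgeR 4.0.16 (R 4.3.3) over all genes. P-values were adjusted by Benjamini and Hochberg and called under 0.05. Each standard error was derived from its fold change and test statistic. Alternatives were RLE, upper quartile and library-size scaling, no filter or a mean of 1 CPM, DESeq2 1.42.0, a test against 1.2-fold, an offset for GC content and length fitted with mgcv 1.9.3, each library left out in turn, a block on heading suffix, and subunits by structure. The fit was tested on simulated data. Replicate libraries differed by more than sampling noise (chi-square per gene 1.56 to 2.50 within groups, 29.5 to 33.7 between), so none was a copy. Named are the 10 highest and 10 lowest called members without overlap between groups, the 3 most and 3 least abundant per length of each subunit, the MRPS18 paralogs, MRPL10, MRPL12, MRPS30, MRPS36, MRPL58, members that failed the filter and up to 3 genes of each related list with the smallest adjusted p. Others named were chosen after their values were seen. The members and lists were chosen with earlier results of these data known.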

Additional observations from a re-analysis of the deposited data

How the results depend on the processing

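MRPL19, MRPL1 and MRPL22 stayed lower and MRPL20, MRPL33 and MRPS21 higher in all 14 alternatives, and 9 higher and 6 lower calls were kept in all 13 that test against no change. Among the 56 single genes followed, the GC and length correction was the only setting in which a gene called there or in the reported test changed sign. Some genes called in neither did so elsewhere, MRPS2 (-0.020) and MRPL10 (-0.024) with library size alone, MRPL46 (-0.129) without SI_3, MRPL41 (-0.017) and MRPS2 (-0.001) without NC_3_2, and MRPL58 without NC_3_2 (0.012) or SI_3_3 (0.020). With library size alone 15 members were higher, 5 of them MRPS, and the medians were -0.008 (MRPL) and 0.008 (MRPS). The median of all tested genes was then -0.044, with 25.3% called higher. With upper quartile scaling the MRPL median was 0.047. Against a 1.2-fold change 3 members were higher (2 MRPL, 1 MRPS) and 4 lower (4 MRPL, 0 MRPS). Of all tested genes 9.29% were higher and 15.7% lower in that test. With the GC and length correction 35 were lower (25 MRPL, 10 MRPS) and the medians were -0.119 and -0.03, a difference of -0.09. It reversed MRPL41 (-0.219), MRPL37 (-0.099), MRPL28 (-0.119), MRPS2 (-0.187), MRPS26 (-0.080), MRPS18A (-0.172), MRPL10 (-0.144), PTCD3 (0.095) and GABPA (0.025). The causes were not tested, except that the 1.2-fold test asks for larger changes by construction.

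Leaving out 1 library gave 19 to 25 members higher and 10 to 14 lower, 13 to 18 and 5 to 9 for MRPL, and 5 to 8 and 3 to 5 for MRPS. The medians were 0.028 to 0.040 (MRPL) and 0.021 to 0.062 (MRPS), their difference -0.030 to 0.017, and the HNRNPC level, as a log2 fold change, -3.824 to -3.736. The column headings do not carry the replicate numbers of the sample titles, but both groups share the suffixes of the headings. A replicate block on that suffix, chosen after seeing the data, gave 24 members higher and 10 lower, with medians of 0.032 (MRPL) and 0.046 (MRPS). It gave no call for MRPL45 (adjusted p = 0.0559 by edgeR), the only change among the single genes followed. Shares of all tested genes under that block are not given here. Deviations of same-suffix libraries from their group means correlated at -0.043 to 0.008 over genes, so the suffix showed no pairing. The widest errors were those of the 5 members under 10 CPM in shcontrol, MRPL46, MRPS18C, MRPS28, MRPS17 and MRPL12.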

Other observations

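Many mitoribosomal genes share a start region with another gene. In GENCODE 29, 17 of the 75 tested members (22.7%) had the start of an opposite-strand coding gene within 1000 bases upstream of their own start. The share was 9.80% of all tested genes. Starts on the downstream side, as where genes overlap, were not counted. The 17 members were 14 of 49 MRPL and 3 of 26 MRPS genes. MRPL46 and MRPS11 are such neighbours of each other, with starts 34 bases apart, and neither passed the test (log2 fold changes 0.10 and 0.03, adjusted p = 0.777 and 0.594 by edgeR). Among the 15 partners tested, which include MRPL46 and MRPS11, 5 were higher, 3 lower and 7 not called. Of all tested genes 29.8% were higher and 31.3% lower. MRPL18 (0.18) and its partner TCP1 (0.07), a subunit of the cytosolic chaperonin, were both called higher. MRPL57 (0.20) was higher while its partner SKA3, a kinetochore protein whose start is 43 bases away, was lower (-0.50, adjusted p = 1.74e-07). MRPL30 (-0.32) was lower while MITD1, with its start 21 bases away, did not pass the test (-0.01, adjusted p = 0.927). The respiratory complex I genes NDUFS6 (0.17) and NDUFB5 (0.16) were higher beside MRPL36 (-0.00) and MRPL47 (0.02), which did not pass the test. Strand use in the counting is not given in the sources used here.

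Of the 77 members 33 have at least 1 pseudogene by name in GENCODE 29. MRPS21 has 8 of them.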
